A study of Mus musculus with 8 samples.

Results

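Glutathione S-transferases (GSTs) were followed in mouse liver through 10 genes of the cytosolic family, taken by symbol from the 33467 genes with a symbol in the deposited expression table. They are Gsta1, Gsta2, Gsta3 and Gsta4 of the alpha class, Gstm1, Gstm2, Gstm3 and Gstm4 of the mu class, Gstp1 of the pi class and Gstt1 of the theta class. Each symbol had 1 row, and all 10 genes passed the filter on low counts, which kept 19535 genes for testing. Liver RNA came from wild-type C57BL/6J mice that were given either a diet with 1% 3,5-diethoxycarbonyl-1,4-dihydrocollidine (DDC) for 4 weeks, with n = 4 animals, or a standard diet for as long, with n = 4 control animals. DDC is a porphyrinogenic compound that injures bile ducts, and it is fed to mice as a model of cholestatic liver injury with biliary fibrosis. The labels give neither sex nor age, and all 8 libraries carry the same batch label.

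GSTs join the tripeptide glutathione to reactive electrophiles such as epoxides, quinones and lipid aldehydes, and the conjugates are then exported from the cell and trimmed to mercapturates. The cytosolic enzymes are dimers within a class, and the genes of a class usually lie beside each other as products of gene duplication. Hepatocytes are rich in alpha and mu enzymes, and several of these genes are known to respond to the stress-activated factor NRF2 and to the xenobiotic receptors CAR and PXR. In mice Gstp1 is known to be higher in male than in female liver.

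Duplicated genes share sequence, and this bears on the values of several members, so the start regions of the alpha cluster on chromosome 9 are shown first. They are RefSeq promoter windows (GRCm38.p6), from 250 bases before to 50 after the annotated start. Gm3776 is a predicted gene beside Gsta1 and was singled out after its values were seen. The deposited annotation lists glutathione transferase activity for it. Capitals mark bases that differ from the Gsta1 window or have no counterpart in it.
Gsta1 (chr9:78230419-78230718, plus strand): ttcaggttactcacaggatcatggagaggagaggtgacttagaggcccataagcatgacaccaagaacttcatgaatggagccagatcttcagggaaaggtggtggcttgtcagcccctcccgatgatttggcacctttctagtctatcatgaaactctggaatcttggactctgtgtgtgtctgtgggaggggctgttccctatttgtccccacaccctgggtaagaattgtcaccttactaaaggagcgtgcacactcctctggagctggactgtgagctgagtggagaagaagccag
Gm3776 (chr9:78256879-78257178, plus strand): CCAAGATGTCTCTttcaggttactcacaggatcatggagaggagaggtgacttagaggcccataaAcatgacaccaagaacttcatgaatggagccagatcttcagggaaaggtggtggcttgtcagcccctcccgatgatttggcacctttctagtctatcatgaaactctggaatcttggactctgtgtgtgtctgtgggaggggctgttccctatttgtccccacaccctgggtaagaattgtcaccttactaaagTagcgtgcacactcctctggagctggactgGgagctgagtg
Gsta2 (chr9:78347096-78347395, minus strand): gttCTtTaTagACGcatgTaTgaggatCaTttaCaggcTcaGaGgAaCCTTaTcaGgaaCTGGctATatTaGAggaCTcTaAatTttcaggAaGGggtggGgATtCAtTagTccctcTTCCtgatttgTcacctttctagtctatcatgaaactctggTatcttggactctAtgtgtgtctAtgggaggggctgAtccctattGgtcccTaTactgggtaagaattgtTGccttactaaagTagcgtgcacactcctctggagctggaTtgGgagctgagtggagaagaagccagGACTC
Over the 287 bases where both windows align, Gm3776 differed from Gsta1 at 3 and was 99.0% identical. Gsta2 was 80.3% identical over 289 aligned bases. In the coding sequence Gsta1 was 99.7% identical to Gm3776 and 98.0% identical to Gsta2.

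The pi gene is shown because it stood apart from the other members in the control livers. In its window the capitals mark TGAGTCA, a sequence recognised by AP-1 factors.
Gstp1 (chr19:4037863-4038162, minus strand): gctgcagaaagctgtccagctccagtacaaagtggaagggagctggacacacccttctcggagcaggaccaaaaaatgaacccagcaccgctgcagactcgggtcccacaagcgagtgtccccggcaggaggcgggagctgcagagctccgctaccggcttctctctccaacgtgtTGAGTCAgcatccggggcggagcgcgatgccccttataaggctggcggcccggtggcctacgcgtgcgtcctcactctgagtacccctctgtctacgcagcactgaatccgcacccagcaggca
The match began 74 bases before the start, at position -74. The windows of 9 of the 10 members, all but Gsta4, were searched on both strands for TGAGTCA and for TGACNNNGC, the core of the antioxidant response element that NRF2 binds. TGAGTCA was found only in Gstp1 among these 9, and TGACNNNGC only in Gsta3, at position -121. Of 32851 promoter windows of the same length, 5.2% held TGAGTCA and 12.4% held TGACNNNGC. The reverse complement of TGAGTCA followed by GC would count for both motifs. A match is a description of the sequence only. Other forms of these sites, and sites farther from the start than the windows reach, were not searched. A window without a match can therefore belong to a gene that has such a site.

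In the deposited coordinates (GRCm38), Gsta4 (78182774 to 78209349, plus strand), Gsta1 (78230656 to 78242684, plus strand) and Gsta2 (78331018 to 78355788, minus strand) lie on chromosome 9 and Gsta3 (21240589 to 21265661, plus strand) on chromosome 1. On chromosome 3, all on the minus strand, lie Gstm3 (107963696 to 107969283), Gstm2 (107981702 to 107986453), Gstm1 (108012255 to 108017973) and Gstm4 (108040408 to 108044894). Gstp1 is on chromosome 19 (4035407 to 4037985, minus strand) and Gstt1 on chromosome 10 (75783813 to 75798584, minus strand). All 10 have protein-coding transcripts. The RefSeq start of Gsta2 lies inside the deposited gene, so its window is that of a shorter transcript model. The RefSeq starts of Gsta1 and Gstp1 also lie inside the deposited genes, nearer to the deposited starts. Motif positions are counted from the RefSeq starts.

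Exact sequence shared with another annotated gene was measured in GENCODE M21 transcripts, whose coordinates equalled the deposited ones for all 10 members. In windows of 150 bases, the read length, 73.7% of the Gsta1 transcript was also present in another gene, with 62.4% in Gm3776 and 14.3% in Gsta2. The share was 26.8% for Gsta2, 41.8% for Gstp1, all of it also in Gstp2, and 3.44% for Gstm3. It was 0% for Gsta3, Gsta4, Gstm1, Gstm2, Gstm4 and Gstt1. Values of Gsta1, Gsta2 and Gstp1 are therefore uncertain as values of single genes, because neither the labels nor the files say how reads with several matches were counted.

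**Figure D1:**
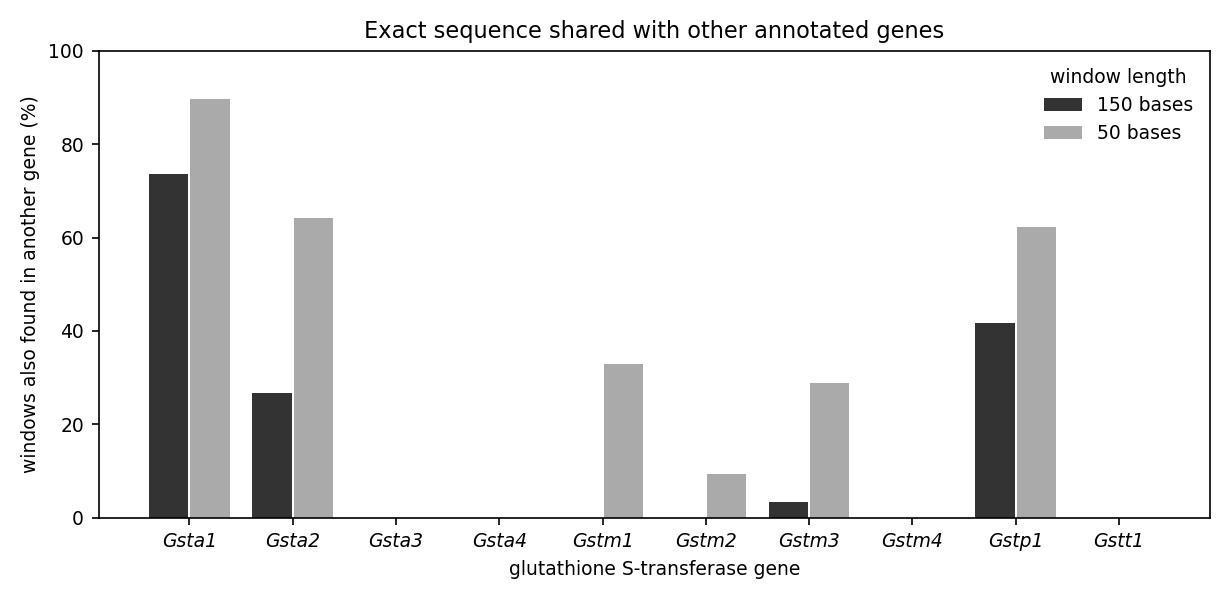
Percent of windows of each member's transcript that occur exactly in a transcript of another gene, for windows of 150 bases (dark bars) and 50 bases (grey bars). Gsta1 reached 73.7% and 89.7%, while Gsta3, Gsta4, Gstm4 and Gstt1 were at 0% for both lengths.

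Library totals were 63312756 to 81664058 counts in DDC livers and 61179103 to 64768950 in control livers. Levels are given as CPM, a gene's count relative to the library total after scaling by edgeR's TMM factor, which corrects for the make-up of the RNA. The factor was 1.21 to 1.27 in DDC libraries and 0.792 to 0.815 in control libraries. Hepatocyte markers such as Alb were abundant in all libraries. The summed level of 8 hepatocyte markers was 57228 to 72419 CPM in DDC livers and 141185 to 170057 CPM in control livers, with all 8 lower. Summed markers were 739 to 1135 CPM in DDC livers and 83.6 to 165 CPM in control livers for 8 cholangiocyte genes (7 higher). They were 861 to 1027 CPM in DDC livers and 164 to 196 CPM in control livers for 7 macrophage genes (7 higher). Fibroblast and stellate cell markers summed to 545 to 683 CPM in DDC livers and 68.0 to 105 CPM in control livers (4 of 6 higher), and neutrophil markers to 81.7 to 116 CPM in DDC livers and 23.4 to 29.9 CPM in control livers (4 of 4 higher). Endothelial markers summed to 91.5 to 122 CPM in DDC livers and 71.0 to 96.7 CPM in control livers (2 of 4 higher). Of all genes tested, 30.2% were called higher and 26.6% lower at an edgeR adjusted p of 0.05. In bulk tissue, fewer cells of a type and less RNA per cell cannot be told apart. The part of these shifts in the GST results was not tested.

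The GST family did not move as a block in DDC livers. Gsta1, Gsta2, Gstm1, Gstm3 and Gstm4 rose, Gsta3, Gstp1 and Gstt1 fell, and Gsta4 and Gstm2 did not pass the test. Of the 10 members 8 were called at an adjusted p of 0.05 in either direction, against 56.8% of all genes tested. The 5 called higher stand against 30.2% of all genes and the 3 called lower against 26.6%. The groups did not overlap for 7 members, against 52.6% of all genes. In 5 of them DDC lay above (26.9% of all genes) and in 2 below (25.7%). The members' median log2 fold change was 0.50, and that of all genes was 0.073.

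**Figure D2:**
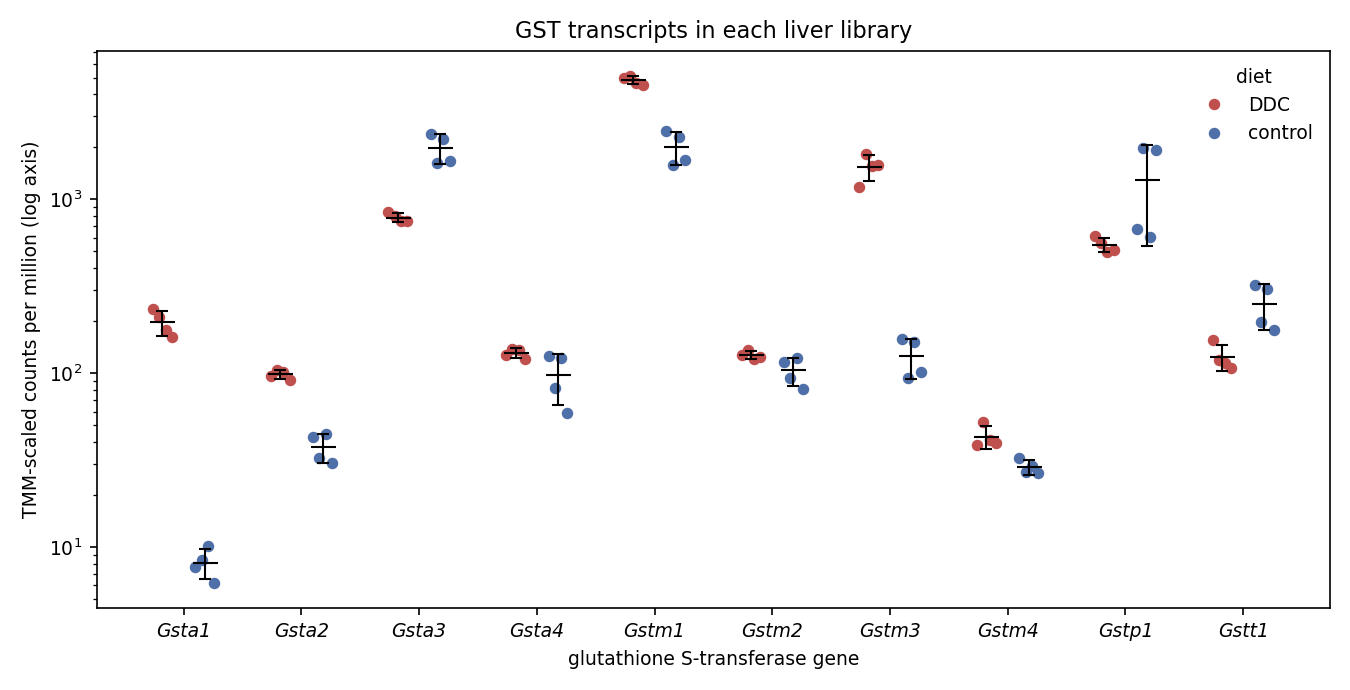
TMM-scaled CPM (log axis) of the 10 members in each library, with DDC livers in red at the left and control livers in blue at the right of each gene, and bars for mean ± SD (n = 4 each). The groups do not overlap for 7 genes, and Gstp1 spans 609 to 1959 CPM within the controls.

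Among the alpha genes, which act on lipid peroxidation products and other electrophiles, Gsta1 changed most of the 4 members. Its level was 232, 211, 177 and 162 CPM in DDC livers 1 to 4 and 7.70, 8.43, 10.1 and 6.24 CPM in control livers 1 to 4. All DDC livers lay far above all controls, and the deposited counts were 14901 to 18306 in DDC livers against 302 to 529 in control livers. The mean was 195 ± 32.0 CPM in DDC livers and 8.11 ± 1.59 CPM in control livers (SD, n = 4 each). Gsta1 rose 24.1-fold (log2 fold change 4.59, SE 0.18, edgeR adjusted p = 9.92e-08).

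Gsta2 had 96.0, 103, 101 and 91.6 CPM in DDC livers and 42.6, 32.3, 44.9 and 30.4 CPM in control livers. The groups did not overlap, and the DDC livers were close to each other. Gsta2 rose 2.61-fold (log2 fold change 1.39, SE 0.13, edgeR adjusted p = 1.23e-05). Counts of Gsta1 were 1.75 to 2.42 times those of Gsta2 in DDC livers and 0.181 to 0.261 times in control livers, so which of the pair had more counts was opposite in the groups.

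Because the rows share sequence, the neighbours were read with Gsta1. Gm3776 had 339, 308, 246 and 236 CPM in DDC livers and 8.77, 8.58, 10.9 and 8.63 CPM in control livers, a rise of 30.6-fold (edgeR adjusted p = 3.70e-08). Over the 8 libraries it was the gene closest to Gsta1 in pattern among 8771 candidates, with a root-mean-square difference of 0.203 in centred log2(CPM + 1). The members and the other GST genes were left out of the candidates, but Gm3776, which shares sequence with Gsta1, was not. Clec7a, a myeloid receptor for fungal glucans, came next at 0.260 and Adam8, a metalloproteinase of leukocytes, at 0.295. A further predicted gene of the cluster, Gm10639, held 825, 990, 428 and 578 counts in DDC livers and 0, 0, 0 and 18 counts in control livers. With Gsta1 and Gsta2 summed, counts were 23333 to 28795 in DDC livers and 1772 to 2887 in control livers, a rise of 6.43-fold (log2 fold change 2.69, SE 0.14). With Gm3776 and Gm10639 added, which were picked with their values in view, the counts were 45627 to 54638 in DDC livers and 2208 to 3462 in control livers, a rise of 10.6-fold (log2 fold change 3.41, SE 0.15, edgeR adjusted p = 1.68e-07).

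Gsta3, an abundant alpha enzyme of mouse liver that detoxifies the epoxide of aflatoxin B1, went the other way. It had 841, 795, 752 and 749 CPM in DDC livers and 2371, 1624, 2232 and 1658 CPM in control livers. Every DDC liver was below every control, with a narrow spread among the DDC livers. The mean was 784 ± 43.2 CPM in DDC livers and 1971 ± 386 CPM in control livers (SD, n = 4 each), 2.51-fold lower (log2 fold change -1.33, SE 0.13, edgeR adjusted p = 2.01e-05). Gsta3 lies on chromosome 1, apart from the chromosome 9 cluster. With the other GST genes left out, the gene closest to Gsta3 in pattern was Hsd3b3, a hydroxysteroid dehydrogenase, at a root-mean-square difference of 0.059. F13b, a subunit of coagulation factor XIII, came next at 0.070, and then Pde4c, a cyclic AMP phosphodiesterase, at 0.078.

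Gsta4, whose product conjugates the lipid aldehyde 4-hydroxynonenal, had 127, 138, 136 and 120 CPM in DDC livers and 125, 82.1, 122 and 59.1 CPM in control livers. Controls 1 and 3 lay within the DDC range and controls 2 and 4 below it. The log2 fold change was 0.42 (SE 0.22, edgeR adjusted p = 0.126) and did not pass. It was 1.05 (edgeR adjusted p = 0.00281) when libraries were scaled by their totals alone.

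The mu genes lie together on chromosome 3, and their products act on epoxides and quinones. Gstm1, the most abundant member per length, had 4984, 5104, 4677 and 4550 CPM in DDC livers and 2455, 1573, 2282 and 1688 CPM in control livers. The groups did not overlap, and the lowest DDC liver was above the highest control. Gstm1 averaged 4829 ± 259 CPM in DDC livers and 2000 ± 434 CPM in control livers (SD, n = 4 each), a rise of 2.41-fold (log2 fold change 1.27, SE 0.14, edgeR adjusted p = 4.91e-05).

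Gstm3 showed the second largest rise of the 10. It had 1171, 1812, 1558 and 1576 CPM in DDC livers and 156, 93.4, 150 and 101 CPM in control livers, with DDC liver 1 the lowest of its group and still far above the controls. The mean was 1529 ± 266 CPM in DDC livers and 125 ± 32.5 CPM in control livers (SD, n = 4 each), a rise of 12.2-fold (log2 fold change 3.61, SE 0.22, edgeR adjusted p = 1.12e-06). Counts of Gstm3 were 0.235 to 0.355 times those of Gstm1 in DDC livers and 0.0594 to 0.0657 times in control livers. By contrast, the pseudogene Gstm2-ps1, which shares 50-base windows but no 150-base window with Gstm1, held 0.00970 to 0.0109 times the Gstm1 count in DDC livers and 0.00916 to 0.0107 times in control livers, so the groups overlapped.

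Gstm4 had 38.6, 52.4, 41.4 and 39.5 CPM in DDC livers and 32.4, 27.0, 29.1 and 26.5 CPM in control livers, without overlap, and rose 1.49-fold (log2 fold change 0.58, SE 0.11, edgeR adjusted p = 0.00140). Gstm2 had 127, 136, 121 and 124 CPM in DDC livers and 116, 93.6, 123 and 81.4 CPM in control livers. Control 3 reached into the DDC range, and the log2 fold change of 0.29 (SE 0.12, edgeR adjusted p = 0.0635) did not pass. This call turned on the settings, since Gstm2 passed without control 3 (log2 fold change 0.38, edgeR adjusted p = 0.0268) and with library totals (0.91, edgeR adjusted p = 0.000130).

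Along the mu cluster the neighbours differed in direction. Gstm5 rose 2.09-fold (edgeR adjusted p = 0.00573), with 21.8, 40.0, 38.6 and 39.9 CPM in DDC livers and 21.8, 11.0, 17.3 and 16.9 CPM in control livers, and DDC liver 1 was no higher than control 1. Gstm6 fell (log2 fold change -1.26, SE 0.07), with 45.8 to 51.7 CPM in DDC livers and 107 to 126 CPM in control livers. Gstm7 fell as well (log2 fold change -0.74, SE 0.12), with 30.6 to 41.7 CPM in DDC livers and 46.7 to 64.0 CPM in control livers. Summed over Gstm1 to Gstm7, the cluster was 2.72-fold higher in DDC livers.

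**Figure D3:**
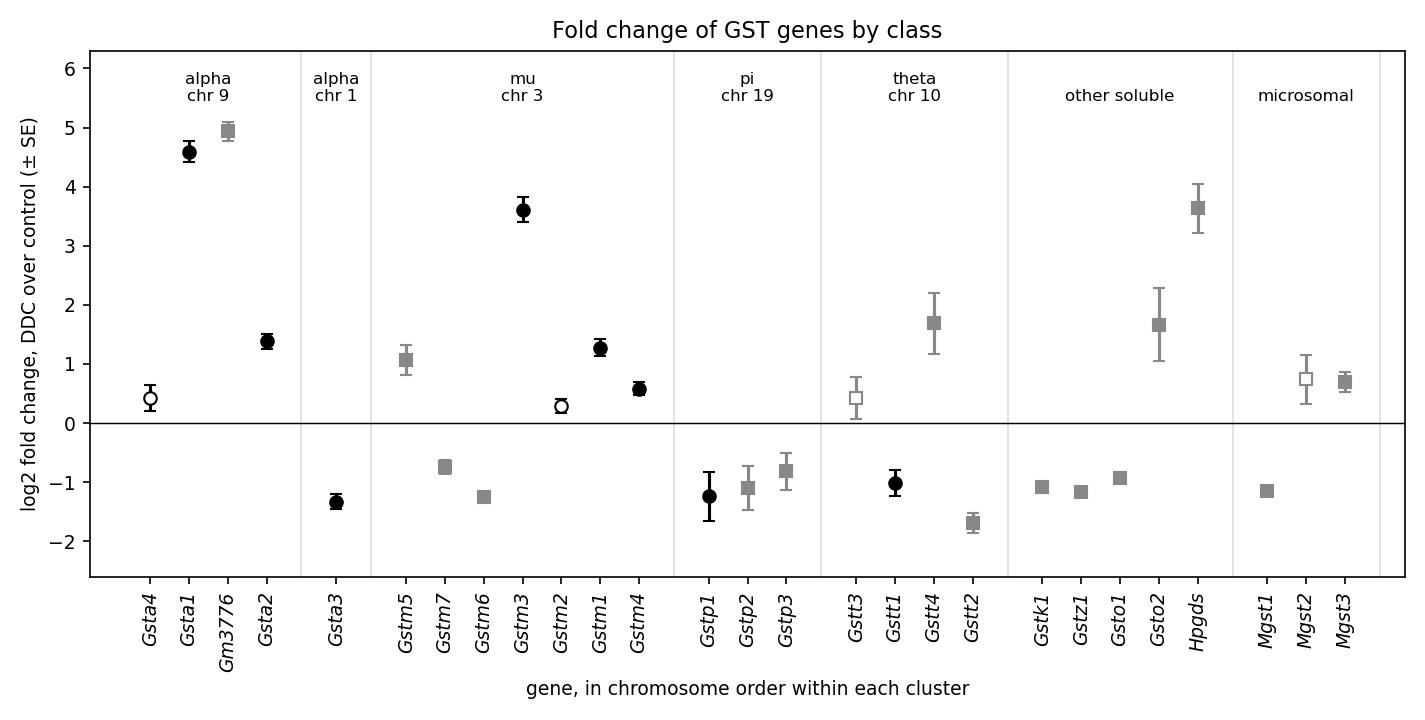
Log2 fold change, DDC over control, with SE, of the 10 members (black circles) and other GST genes (grey squares), by class; open symbols did not pass the test. Among the 10 members the largest rises are Gsta1 at 4.59 and Gstm3 at 3.61, Hpgds among the other soluble genes is at 3.64, and the 3 pi genes all lie below 0.

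Gstp1, the pi enzyme, had 612, 560, 500 and 511 CPM in DDC livers and 674, 1959, 609 and 1921 CPM in control livers. The controls did not lie together. Controls 2 and 4 were far above every DDC liver, while controls 1 and 3 were close to the DDC range, with control 3 just below DDC liver 1. The mean was 546 ± 51.2 CPM in DDC livers and 1291 ± 750 CPM in control livers (SD, n = 4 each). The fall of 2.37-fold (log2 fold change -1.24, SE 0.41, edgeR adjusted p = 0.0327) passed with all 8 libraries but not when any single DDC liver, control 2 or control 4 was left out (edgeR adjusted p between 0.0736 and 0.0846). With all 8 libraries kept, it also did not pass with limma voom, without the low-count filter or with the replicate block (adjusted p between 0.0700 and 0.0944), nor with library totals (log2 fold change -0.62, edgeR adjusted p = 0.206) or log2 FPKM (-0.42, limma adjusted p = 0.366). In omissions of pairs chosen after these values were seen, where the choice itself sets the difference, controls 2 and 4 gave a log2 fold change of -0.24 when omitted, and controls 1 and 3 gave -1.84.

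Other genes known for sex-biased levels in mouse liver followed the same split. The genes were picked for the split after their values were seen. Mup20, a male-biased urinary protein gene, had 203, 208, 105 and 163 CPM in DDC livers and 376, 2644, 270 and 3058 CPM in control livers. Cyp2b9, a female-biased cytochrome P450 gene, had 70.1, 49.6, 46.1 and 43.5 CPM in DDC livers and 238, 7.76, 298 and 8.45 CPM in control livers. Controls 2 and 4 were thus high for Mup20 and low for Cyp2b9. The DDC livers lay below all controls for Mup20 and between the control pairs for Cyp2b9. All 8 libraries held transcripts of the Y-linked genes Ddx3y, Kdm5d, Eif2s3y and Uty, and Xist was at most 0.852 CPM in any of them. The part of this split in the Gstp1 result was not tested.

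Across the members the same pairs of controls differed at smaller size. Controls 1 and 3, paired after the values were seen, were both above controls 2 and 4 for 8 of the 10 members, Gstp1 had the opposite order, and Gsta1 had a mixed one. Of the 17 other GST genes 9 had the first order, 3 the opposite and 5 a mixed one, and of all genes tested 25.9%, 21.9% and 52.2% did. Gstp2, the near copy of Gstp1 with 98.1% coding identity, had 59.9 to 76.5 CPM in DDC livers and 79.0, 209, 79.5 and 220 CPM in control livers. The count of Gstp2 was 0.120 to 0.129 times that of Gstp1 in DDC livers and 0.107 to 0.131 times in control livers. In windows of 150 bases 41.8% of the Gstp1 transcript is also in Gstp2, and how shared reads were counted is not stated. The pair therefore does not give separate readings of the split. Summed over the 3 pi rows, DDC livers were 2.33-fold lower (edgeR adjusted p = 0.0298).

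**Figure D4:**
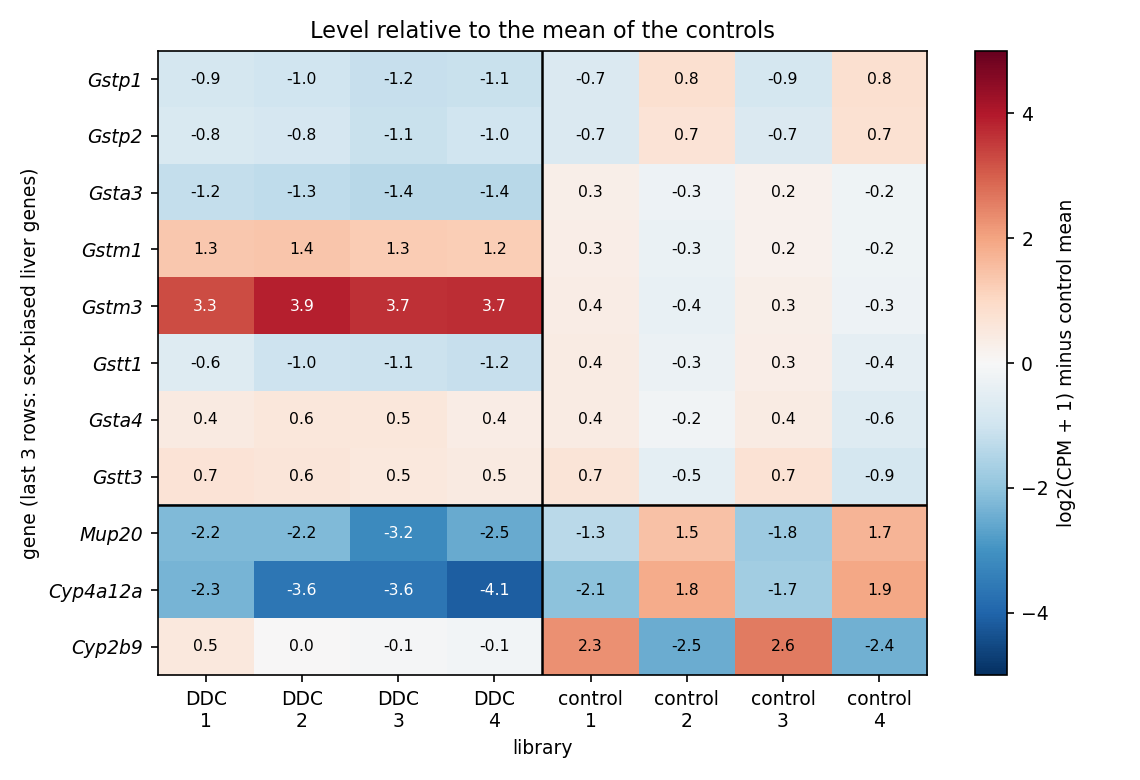
Level of 8 GST genes and 3 genes with sex-biased expression in mouse liver in each library, as log2(CPM + 1) minus the mean of the 4 controls, DDC livers at the left and control livers at the right. Gstp1 is at 0.81 and 0.78 in controls 2 and 4 and between -1.16 and -0.73 in the other 6 libraries, while Gstm3 is between 3.25 and 3.88 in the DDC livers.

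Gstt1, a theta enzyme that acts on small halogenated compounds such as dichloromethane, had 156, 118, 114 and 107 CPM in DDC livers and 322, 196, 304 and 177 CPM in control livers. DDC liver 1 was the highest of its group, and the groups did not overlap. Gstt1 was 2.02-fold lower in DDC livers (log2 fold change -1.01, SE 0.21, edgeR adjusted p = 0.00345). This call rested on the scaling: with library totals alone the log2 fold change was -0.39 (edgeR adjusted p = 0.129), while the median of all genes moved to 0.70. Its neighbour Gstt2 fell more (log2 fold change -1.68, SE 0.17), with 23.9 to 31.0 CPM in DDC livers and 68.5 to 109 CPM in control livers. Gstt3 had 90.0 to 105 CPM in DDC livers and 103, 46.0, 107 and 35.0 CPM in control livers and did not pass.

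Levels of different genes were compared per transcript length, on the authors' FPKM, fragments scaled to transcript length and depth, which go by library totals. Gstm1 led in both groups, with a level of 3912 ± 129 FPKM in DDC livers and 1057 ± 232 FPKM in control livers (SD, n = 4 each). In DDC livers Gstm3 followed at 1393 ± 239 FPKM, then Gstp1 at 420 ± 32.3, Gsta1 at 244 ± 35.5 and Gsta3 at 215 ± 8.51, and the ranges of Gsta1 and Gsta3 overlapped. Below them stood Gsta4 at 123, Gsta2 at 99.5, Gstt1 at 96.5 and Gstm2 at 90.1 FPKM, and the range of Gstt1 overlapped those of the other three. Gstm4 was the lowest at 30.0 FPKM.

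In control livers the order was different. Gstp1 was second at 648 ± 376 FPKM, with a range that overlapped those of Gstm1 and of Gsta3, next in order at 354 ± 70.2 FPKM. Gstt1 followed at 127 FPKM, then Gstm3 at 74.4, Gsta4 at 59.8 and Gstm2 at 48.0 FPKM, and the ranges of neighbours in this stretch overlapped. Gsta2 stood at 24.8 and Gstm4 at 13.1 FPKM. Gsta1 was the lowest of the 10 in control livers, at 6.60 ± 1.38 FPKM.

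Together the 10 genes took 1.01% to 1.09% of all counts in DDC livers and 0.455% to 0.506% in control livers. On the TMM scale their summed level was 8030 to 9030 CPM in DDC livers and 5689 to 6302 CPM in control livers, a smaller difference than on either scale that goes by library totals. Of their summed FPKM, Gstm1 made up 57.8% to 61.6% in DDC livers and 34.7% to 51.9% in control livers. Gstm3 made up 16.3% to 23.0% in DDC livers and 2.31% to 3.81% in control livers. Gsta3 made up 3.05% to 3.52% in DDC livers and 12.1% to 17.1% in control livers, and Gstp1 5.97% to 7.20% in DDC livers and 13.1% to 41.1% in control livers. Gstm1 held the largest share in all DDC livers and in controls 1 and 3, and Gstp1 held it in controls 2 and 4.

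**Figure D5:**
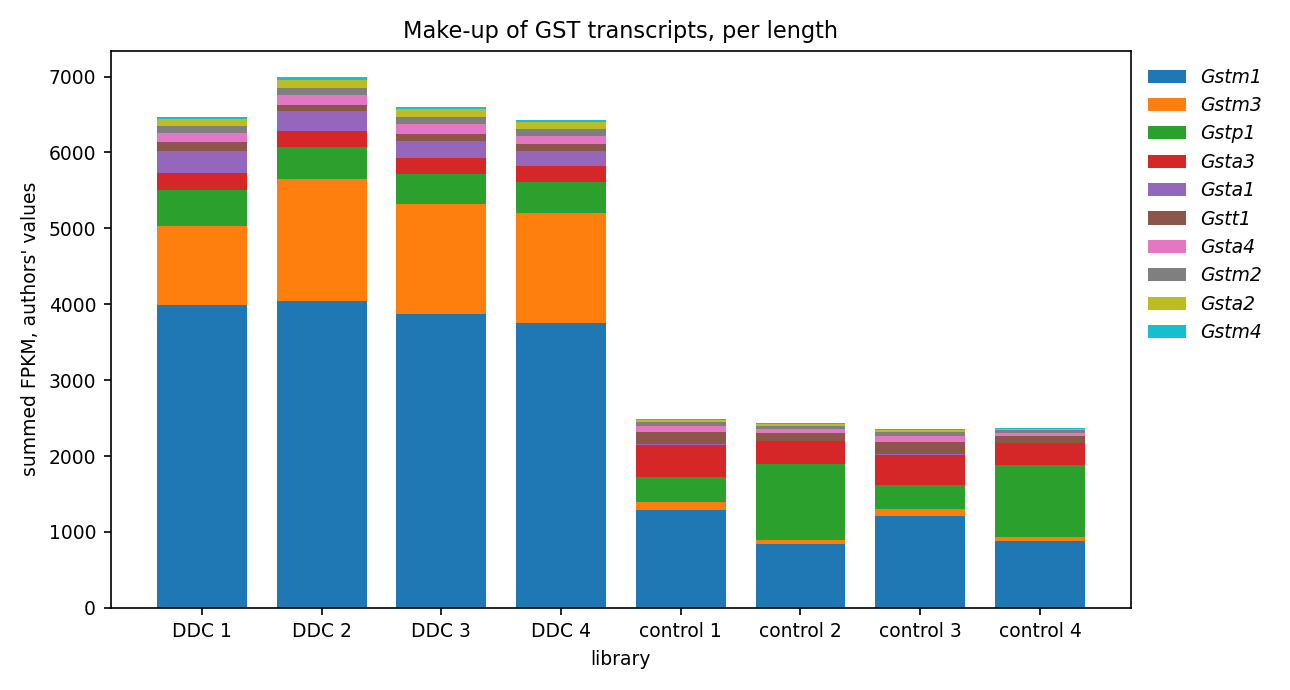
FPKM of the 10 members stacked for each library, DDC livers at the left and control livers at the right; bar height is the summed level. Sums are 6434 to 6991 FPKM in DDC livers and 2360 to 2494 FPKM in control livers, and Gstp1 is the largest segment in controls 2 and 4.

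Of 17 other GST genes listed, 6 were called higher, near the 30.2% of all genes, and 2 did not pass. Another 9 were called lower, beside 26.6% of all genes. The median log2 fold change of the 17 was -0.74. Gm3776 and Gm10639 of the alpha cluster were not on this list, and both were called higher (log2 fold change 4.93 and 6.48). With library totals alone 8 of the 17 were called higher and 6 lower. Of all 19535 genes tested, 11505 were called higher and 1750 lower under that scaling. Besides Gstm6, Gstm7, Gstp2 and Gstt2, the genes called lower were, with their log2 fold changes, Gstp3 (-0.82), Gstk1, the kappa enzyme of mitochondria and peroxisomes (-1.09), Gstz1, which acts in tyrosine breakdown (-1.17), Gsto1 of the omega class (-0.92) and Mgst1, the abundant microsomal enzyme (-1.15). Mgst1 had 1331, 1344, 1295 and 1204 CPM in DDC livers and 2681, 2933, 2608 and 3229 CPM in control livers, without overlap. The calls of Gstp2 (edgeR adjusted p = 0.0362) and Gstp3 (edgeR adjusted p = 0.0484) were close to the threshold. For Gstp3 the groups overlapped, with 8.28 to 9.04 CPM in DDC livers and 23.3, 9.76, 19.6 and 8.34 CPM in control livers.

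Hpgds, the prostaglandin D synthase of blood cells and a sigma-class GST, rose 12.4-fold, with 17.0, 18.7, 14.5 and 17.7 CPM in DDC livers and 0.427, 1.78, 1.03 and 2.23 CPM in control livers. The macrophage marker sum was higher in DDC livers too, and its part in this rise was not tested. Mgst3 rose 1.62-fold and Gstcd 1.75-fold, both without overlap of the groups. Gstt4 and Gsto2 were also called higher but stayed below 5 CPM, and Gstt3 and Mgst2 did not pass.

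Of 21 genes of glutathione synthesis, recycling and breakdown, 8 were called higher, 7 lower and 6 did not pass, with a median log2 fold change of 0.078. These counts are near the share over all genes (30.2% higher and 26.6% lower). Slc7a11, the cystine importer, rose 10.1-fold to 7.56 ± 0.956 CPM in DDC livers, against 0.745 ± 0.144 CPM in control livers (SD, n = 4 each). G6pdx, which supplies NADPH, rose 4.47-fold, with 80.2 CPM in DDC liver 1 and 28.0 to 30.3 CPM in DDC livers 2 to 4. Oplah, which recycles oxoproline (log2 fold change -1.90), and Lap3, a leucine aminopeptidase (-1.34), fell.

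Of 20 genes for glutathione peroxidases, peroxiredoxins, glutaredoxins and the thioredoxin system, 6 were called higher and 10 lower, again beside 30.2% and 26.6% of all genes. All 4 glutaredoxin genes listed, Glrx, Glrx2, Glrx3 and Glrx5, were among those lower, and they were singled out with their values in view. On FPKM, which go by library totals, the mean of each was higher in DDC livers. With library totals alone 11 of the 20 were called higher and 2 lower, beside 11505 and 1750 of all 19535 genes tested. Srxn1, the sulfiredoxin that repairs peroxiredoxins, rose 7.28-fold and the secreted peroxidase Gpx3 5.32-fold, while Prdx6 (log2 fold change -1.05) and Prdx4 (-0.73) fell. Gpx3 was at 138 CPM in DDC liver 1 and at 60.2 to 63.7 CPM in DDC livers 2 to 4. Genes of conjugate export and mercapturate formation had 4 of 14 called higher, near the 30.2% of all genes. Another 8 were called lower, beside 26.6% of all genes. With library totals alone 6 of the 14 were called higher and 5 lower. The efflux pumps Abcc4 and Abcc1 rose 9.69-fold and 4.34-fold, and the acetyltransferase gene Nat8 (log2 fold change -3.73) and its relative Nat8f1 (-2.29) fell.

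Of 19 factors named as regulators of GST genes, 1 was called higher and 14 lower, beside 30.2% and 26.6% of all genes. The 1 was Nfe2l2, which encodes NRF2, at 147 ± 17.3 CPM in DDC livers and 90.8 ± 12.3 CPM in control livers (SD, n = 4 each), 1.61-fold higher. Among factors that reached 5 CPM, Ppara (log2 fold change -2.40) and Cebpb (-1.45) had the largest falls. With library totals alone 5 of the 19 were called higher and 8 lower, beside 11505 and 1750 of all 19535 genes tested. Of 12 marker targets of NRF2, CAR, PXR and the aryl hydrocarbon receptor, 8 were called higher and 1 lower. These counts stand beside 30.2% and 26.6% of all genes, and 3 targets did not pass. Cyp3a11 was 1 of the 3 (log2 fold change -0.20, edgeR adjusted p = 0.307). Cyp2b10, a CAR target, rose 11.1-fold and Hmox1, heme oxygenase 1, 4.46-fold. Cyp2b10 was at 543 CPM in DDC liver 1 and at 236 to 267 CPM in DDC livers 2 to 4. Ugt1a6a, a glucuronosyltransferase whose exons are partly shared within its locus, was lower (log2 fold change -1.33).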

How the data were processed

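Poly(A) RNA from 8 mouse livers was made into dUTP libraries and read in pairs of 150 bases, per the labels' protocols. The authors deposited raw whole-number counts for 55401 genes and FPKM, scaled to length and depth, for 33467 genes with symbols. Cutadapt, FastQC, HISAT2, StringTie and DESeq2, on GRCm38 or mm10, are named per the submitters' processing notes, with no versions. Strand use in counting, and the treatment of reads with several matches, are not stated in those sources.

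Counts of all 8 libraries were fitted with edgeR 4.0.16 (R 4.3.3): TMM scaling, filterByExpr, robust quasi-likelihood fits, a two-sided test and Benjamini-Hochberg adjustment over 19535 genes, called at 0.05. The code was tested on simulated counts. Each SE was the log2 fold change's size over the square root of its F. Named genes are the 10 members, the other GST genes, and of each further list the 2 largest called rises and falls reaching 5 CPM. Pattern likeness used genes with a mean of at least 10 CPM, with the members and the other GST genes left out. Other named genes (Gm3776, Gm10639, Gstm2-ps1, the glutaredoxin genes, Cyp3a11 and the sex-biased genes) were picked with their values in view. The members and lists were chosen with earlier results of these data known. Transcript windows and coding sequences came from GENCODE M21 (Biopython 1.88). Alternatives were other scalings, filters, DESeq2 1.42.0, limma 3.58.1 voom, log2 FPKM fits with pseudocounts of 1 and 0.1, each library left out, a replicate block and summed paralogs. No library was a duplicate of another within sampling noise. Depth gives precision for counting error only.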

Additional observations from a re-analysis of the deposited data

Results flagged for a closer look

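In 7 of 54 groups of 4 libraries, 1 library lay far from the other 3 in the level of a GST gene; chance gives about 5% of groups. None of the 7 concerns the 10 members, and 5 are DDC liver 1. In TMM-scaled CPM, Gstm5 was at 21.8 in DDC liver 1 and at 38.6 to 40.0 in the other DDC livers. Gstm7 was at 41.7 there, against 30.6 to 32.1. Gstt4 was at 0.929 there, against 4.19 to 4.57, and Gsto2 at 0.310, against 2.53 to 2.59. Mgst3 was at 39.7 there, against 27.2 to 29.2. In control liver 2, Gstz1 was at 613, against 672 to 678 in the other controls, and Gsto1 at 100.2, against 85.2 to 86.7.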

How the results depend on the processing

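Of the 10 members none changed direction under the alternatives run, 20 for each gene besides the sums of paralogs. Gsta1, Gsta2, Gsta3, Gstm1, Gstm3 and Gstm4 kept their calls under all of them. Gstp1 lost its call in 13 of 20, Gstt1 in 3 of 20 (library totals and both log2 FPKM fits), Gsta4 gained one in 4 of 20 and Gstm2 in 9 of 20. Members called lower numbered 1 with library totals alone and 1 with either log2 FPKM fit. With library totals alone, 11505 of the 19535 genes tested were called higher and 1750 lower. Library totals moved the all-gene median log2 fold change to 0.70 (0.073 with TMM) and the share of calls that were higher to 86.8% (53.1% with TMM). With them genes of glutathione synthesis, recycling and breakdown had 13 called higher, the peroxidase and glutaredoxin list 11 higher and 2 lower, conjugate export 5 lower, and regulators 5 higher and 8 lower; by construction this scaling has no composition factor. With control livers 1 and 3 left out, 2 regulators were called higher, and with control livers 2 and 4 left out, 2 marker targets were called lower; both omissions, and the sum of 4 alpha rows, were chosen after seeing the data, and the cause was not tested. Leaving out 1 library gave 5 to 6 members called higher, 2 to 3 lower and 9632 to 11760 genes called in all, against 11098.

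No pairing of the livers by replicate number was seen: correlations of same-numbered deviations were -0.26, -0.23, 0.03 and -0.094. These values cannot exclude a pairing in the design. With the replicate block 9464 genes were called, and Gstp1 (log2 fold change -1.04, adjusted p = 0.0753) lost its call; no other member's call changed. A count of 3 in a library stood for 0.0290 to 0.0387 CPM in DDC livers and 0.0571 to 0.0620 CPM in control livers, below every member's level.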
